A study of Mus musculus with 8 samples.

Results

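Potassium channel subunits were followed in the SCN (suprachiasmatic nucleus), the paired cluster of hypothalamic neurons that acts as the central daily clock of the mouse. Members were the genes whose single annotated symbol begins with Kcn, each read from its probe set of highest mean signal over the 8 arrays. The rule found 92 of the 19938 genes with a symbol of their own on the array. Of these, 59 lay above the level filter (a mean log2 signal of 6.82 over all arrays) and were tested among 12452 genes, and 33 lay below it. The mice were C57BL/6J wild type (WT) or Gpr176-/- (KO), in which the gene of a G-protein-coupled receptor with no known ligand has been knocked out. All had lived for more than 2 weeks under 12 h light and 12 h dark and were then kept in constant darkness, so that circadian time 6 (CT6) is the middle of the subjective day and circadian time 18 (CT18) the middle of the subjective night. Each array held the laser-microdissected SCN of 10 animals. The 4 groups (WT CT6, WT CT18, KO CT6 and KO CT18) had 2 arrays each, A and B, which are separate biological pools, and the 8 arrays stand for 80 animals. The sex and age of the animals, and the part of Gpr176 that is deleted, are not given in the sources used here.

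Potassium channels let potassium leave the cell and so repolarise it after a spike and set its resting potential. SCN neurons fire faster by day than by night, and this rhythm of firing is known to rest in part on potassium currents: fast delayed rectifiers of the Kv3 family, A-type currents of the Kv4 and Kv1 families, the large-conductance calcium-activated (BK) channel and leak channels. A channel is built of pore-forming subunits, and auxiliary subunits such as the BK beta subunits or the Kv channel-interacting proteins (KChIPs) tune its gating and its delivery to the membrane. The array measures transcript signal and not current.

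Across both genotypes, 18 of the 59 tested members differed between CT18 and CT6, 11 higher and 7 lower at CT18. The transcripts higher at night included Kcnma1, the BK pore, by 0.42 on the log2 scale (1.34-fold), and Kcnd3, Kcnh5, Kcnj9 and Kcna2 by 0.32 to 0.36. The transcripts lower at night were led by Kcnc2, a fast delayed rectifier of the Kv3 family, which fell by 0.59 (1.51-fold), and by Kcnmb1, a BK beta subunit, which fell by 0.40 (1.32-fold). A member was called when its limma p-value, adjusted by the Benjamini-Hochberg method over all 12452 genes, was under 0.05. By that rule 30.5% of the tested members were called, beside 16.8% of all genes tested (18.6% of members against 10.0% of genes higher, and 11.9% of members against 6.79% of genes lower). No member was called between the genotypes.

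The start regions of 5 called members are shown because the daily timing of these genes is the main pattern in the data. They are those of the BK pore, of the member with the greatest day-night difference, and of the 3 called members in which 1 of the motifs searched was found. Each is the 250 bases before an annotated start, read 5′ to 3′ on the gene's own strand, from RefSeq on build GRCm38.p6. Capitals mark a motif match on either strand.
Kcnma1 (chr14:24004206-24004455, minus strand): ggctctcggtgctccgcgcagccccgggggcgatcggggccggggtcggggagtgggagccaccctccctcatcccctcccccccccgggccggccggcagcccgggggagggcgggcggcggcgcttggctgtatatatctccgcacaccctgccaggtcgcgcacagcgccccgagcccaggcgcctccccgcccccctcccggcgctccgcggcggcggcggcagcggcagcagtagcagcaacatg
Kcnc2 (chr10:112269767-112270016, plus strand, the first of 4 annotated starts): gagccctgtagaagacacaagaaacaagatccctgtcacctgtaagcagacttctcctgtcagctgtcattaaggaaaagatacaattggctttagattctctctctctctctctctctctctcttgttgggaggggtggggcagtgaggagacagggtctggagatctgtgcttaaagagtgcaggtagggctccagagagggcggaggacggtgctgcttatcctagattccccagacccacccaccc
Kcnh5 (chr12:75177333-75177582, minus strand): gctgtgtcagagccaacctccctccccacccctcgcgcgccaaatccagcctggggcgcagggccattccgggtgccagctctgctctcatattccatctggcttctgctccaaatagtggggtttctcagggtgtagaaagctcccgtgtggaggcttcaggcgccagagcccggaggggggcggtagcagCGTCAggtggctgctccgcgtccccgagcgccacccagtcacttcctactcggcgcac
Kcnip4 (chr5:49285660-49285909, minus strand, 1 of 2 annotated starts): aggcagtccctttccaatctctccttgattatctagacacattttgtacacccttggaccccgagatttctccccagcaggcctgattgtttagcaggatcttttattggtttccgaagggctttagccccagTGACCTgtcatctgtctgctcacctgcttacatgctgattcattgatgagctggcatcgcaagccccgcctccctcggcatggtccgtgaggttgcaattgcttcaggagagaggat
Kcnk10 (chr12:98575128-98575377, minus strand, 1 of 2 annotated starts): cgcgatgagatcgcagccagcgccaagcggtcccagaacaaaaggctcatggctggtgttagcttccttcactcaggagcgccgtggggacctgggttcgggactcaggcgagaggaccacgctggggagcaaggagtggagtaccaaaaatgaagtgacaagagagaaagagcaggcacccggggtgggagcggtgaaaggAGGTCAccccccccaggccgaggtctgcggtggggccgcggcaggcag

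Short motifs known from clock and cyclic AMP signalling were searched on both strands of 95 such windows from 70 members, and of all 32851 windows in the table. The E-box CACGTG, to which CLOCK and BMAL1 bind, was in 6.32% of the members' windows and 6.02% of all windows, and in 0 of the 23 windows of the 16 called members that have one. The members' matches were in Kcnab1, Kcne4, Kcnh4, Kcnj2 and Kcnn4, none of which was called. The D-box TTATGTAA (0.819% of all windows) and the full cyclic AMP response element TGACGTCA (1.55%) were in no member's window. The element's half-site TGACG, which the full element contains, was in 15.8% of members' windows and 17.8% of all windows, and among called members only in the Kcnh5 window, 54 bases before the start. The nuclear receptor half-site AGGTCA was in 6.32% of members' windows and 14.0% of all windows, and among called members in the Kcnip4 and Kcnk10 windows, 112 and 43 bases before the start. These counts cover only these letters in these windows.

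The labels and the tissue were checked first. The Gpr176 signal, on a log2 scale like all signals here, was 9.37 and 9.31 in the WT CT6 pools, 9.73 and 9.87 in WT CT18, 8.08 and 8.02 in KO CT6, and 8.42 and 8.56 in KO CT18. Every KO array was below every WT array, and the difference was -1.30 ± 0.0491 (SE; limma adjusted p = 3.38e-06). All 10 SCN neuron markers were above the level filter, with a list mean of 9.94 to 10.5 over the arrays. That mean was lower by 0.44 at CT18, and the list includes rhythmic peptide genes such as Avp. Astrocyte markers (8 of 8 above the filter, mean 10.8 to 11.1) and oligodendrocyte markers (7 of 7, mean 9.58 to 10.0) were also present. Of 7 markers of neighbouring hypothalamic neurons, 4 were above the filter: Oxt at 11.7, Trh at 9.28, Npy at 8.69 and Th at 7.98. The share of tissue around the SCN in the pools was not tested. The choroid plexus list had a mean of 6.38 to 6.47, with 2 of 6 above the filter (Folr1 at 7.09 and Clic6 at 6.93). Its defining gene Ttr was just under the filter, at 6.78. In such bulk tissue, fewer cells of a type and less RNA per cell cannot be told apart. Signals of different probe sets depend on their probes, so levels are compared only within a gene.

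Among voltage-gated pore subunits of the Kv1 to Kv4 families, 11 of 15 members were tested, 2 rose and 2 fell at CT18. Beside these counts and those of the roles below, 10.0% of all genes tested rose and 6.79% fell. Kcnc2, which encodes a Kv3 subunit that lets neurons fire at high rates, read 10.24 and 10.21 in the WT pools at CT6 and 9.61 and 9.62 at CT18, and 10.07 and 10.22 in the KO pools at CT6 and 9.53 and 9.60 at CT18. All 4 CT18 arrays lay below all 4 CT6 arrays, and the gap between them was larger than the spread within any pair of pools. The difference over both genotypes was -0.59 ± 0.0436 (limma adjusted p = 2.07e-05). It was the member with the greatest difference between the times. Kcnc1, the other Kv3 subunit often studied in the SCN, differed the other way by 0.09 ± 0.0358 and was not called (limma adjusted p = 0.126).

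The A-type pore genes of the Kv4 family did not move together. Kcnd3 read 9.59 and 9.53 at CT6 and 9.90 and 9.97 at CT18 in WT, and 9.56 and 9.57 at CT6 and 9.93 and 9.88 at CT18 in KO. All CT18 arrays were above all CT6 arrays, and the difference was 0.36 ± 0.0382 (limma adjusted p = 0.000245). Kcnd1 fell slightly, by 0.14 (SE 0.0382, limma adjusted p = 0.0325), from 7.60 to 7.66 in the CT6 arrays to 7.44 to 7.55 in the CT18 arrays. The Kcnd1 call was kept in 3 of 14 alternative analyses and in 1 of the 8 that left out 1 array, so it depended on the arrays and settings used. Kcnd2 had a difference of 0.08 ± 0.0377 and was not called (limma adjusted p = 0.214), and Kcna4, a Kv1 subunit of A-type currents, had a mean signal of 6.69, under the filter. Kcna2, a Kv1 subunit of axons, rose from 10.16 and 10.08 to 10.44 and 10.46 in WT and from 10.05 and 10.17 to 10.43 and 10.40 in KO, again without overlap. Its difference was 0.32 ± 0.0423 (limma adjusted p = 0.000943), and a second Kcna2 probe set gave 0.31.

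The Kv channel-interacting proteins are calcium-binding auxiliary subunits of the Kv4 pores, and 3 of the 4 Kcnip genes were lower at night (all genes 6.79%). Kcnip4 read 10.14 and 10.07 at CT6 and 9.82 and 9.82 at CT18 in WT, and 10.18 and 10.22 at CT6 and 9.87 and 9.91 at CT18 in KO. Its CT18 arrays were all below its CT6 arrays, and it fell by 0.30 (SE 0.0373, limma adjusted p = 0.000674). Kcnip2 read 8.13 and 8.22 at CT6 and 7.87 and 7.92 at CT18 in WT, and 8.19 and 8.20 at CT6 and 7.85 and 7.88 at CT18 in KO. It also separated without overlap and fell by 0.30 (SE 0.0388, limma adjusted p = 0.000736). Kcnip3, whose product is also known as the transcriptional repressor DREAM, fell by 0.18 (SE 0.0371, limma adjusted p = 0.0108), with CT6 arrays at 10.80 to 10.86 and CT18 arrays at 10.62 to 10.68. Kcnip1 had a difference of -0.09 ± 0.0379 and was not called (limma adjusted p = 0.128). Kcnip2, Kcnip3 and Kcnip4 were thus lower at CT18. Of the 3 Kv4 pore genes, Kcnd3 was higher, Kcnd1 was lower by 0.14 (a call easily lost) and Kcnd2 was not called. The other tested auxiliary genes, Kcnab1, Kcnab2 and Kcne1l, had differences of -0.05, -0.03 and -0.01 and were not called.

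**Figure D1:**
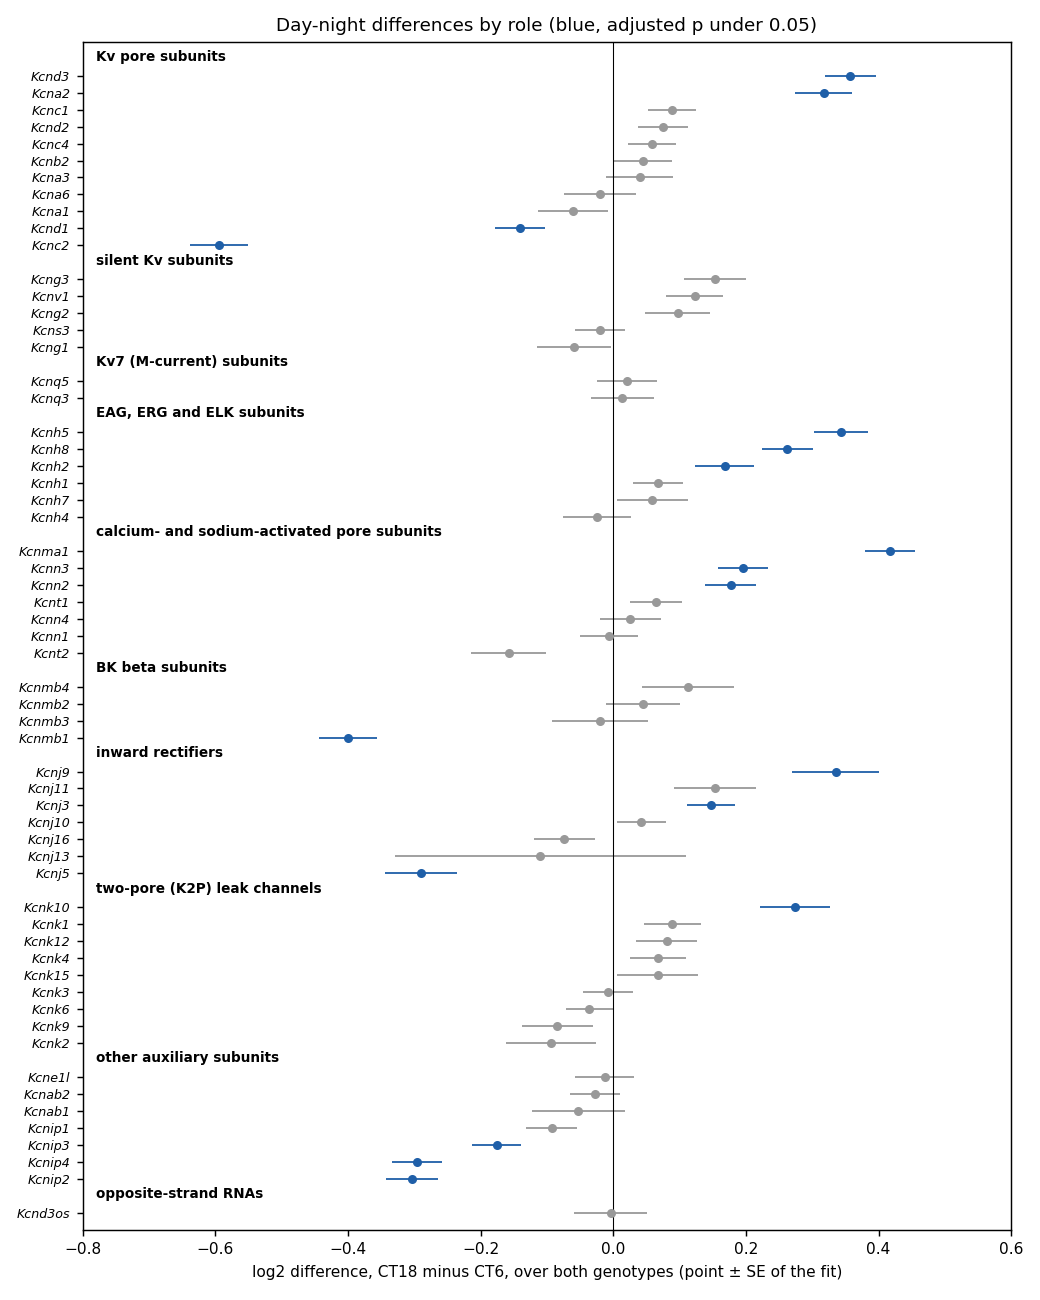
Day-night difference of each of the 59 tested members, grouped by role; the horizontal axis is the log2 signal at CT18 minus CT6 over both genotypes (4 arrays each), points are the fitted difference and bars its standard error. Blue points, the 18 with adjusted p under 0.05, lie on both sides of 0, from Kcnc2 at -0.59 to Kcnma1 at 0.42.

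The EAG, ERG and ELK genes (Kcnh) encode slowly gated voltage-dependent pores. Of the 6 tested, 3 were higher at night (all genes 10.0%) and none lower (all genes 6.79%). Kcnh5, an EAG subunit, read 10.04 and 9.98 at CT6 and 10.39 and 10.36 at CT18 in WT, and 9.92 and 10.04 at CT6 and 10.31 and 10.30 at CT18 in KO. The CT18 arrays were above all CT6 arrays, by 0.34 ± 0.0409 (limma adjusted p = 0.000479). Kcnh8, an ELK subunit, rose by 0.26 ± 0.0381 (limma adjusted p = 0.00157), with CT6 arrays at 9.86 to 9.93 and CT18 arrays at 10.10 to 10.18. A second probe set of Kcnh8 gave a difference of 0.35. Kcnh2, the ERG subunit best known from the heart, rose by 0.17 ± 0.0448 (limma adjusted p = 0.0305), with CT6 arrays at 8.08 to 8.12 and CT18 arrays at 8.16 to 8.33. The Kcnh2 call was kept in 7 of 15 alternatives and in 1 of 8 that left out 1 array. Kcnh1, Kcnh4 and Kcnh7 lay between -0.02 and 0.07 and were not called.

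Among pores opened by intracellular calcium or sodium, 3 of 7 tested members rose (all genes 10.0%) and none fell (all genes 6.79%). Kcnma1, the BK pore that carries a night-time potassium current in SCN neurons, read 9.91 and 9.97 at CT6 and 10.39 and 10.33 at CT18 in WT, and 9.82 and 9.85 at CT6 and 10.24 and 10.27 at CT18 in KO. Every CT18 array was above every CT6 array, and the difference was 0.42 ± 0.0379 (limma adjusted p = 8.53e-05). A second Kcnma1 probe set, of mean signal 5.15 and so under the filter, gave -0.02. With both probe sets averaged the difference was 0.20 (limma adjusted p = 0.00767). The small-conductance channels Kcnn3 and Kcnn2, which carry the after-hyperpolarisation, rose by 0.20 ± 0.0381 (limma adjusted p = 0.00739) and 0.18 ± 0.0389 (limma adjusted p = 0.0132). Kcnn3 read 9.27 to 9.39 in the CT6 arrays and 9.48 to 9.59 at CT18, and Kcnn2 read 7.84 to 7.94 at CT6 and 7.96 to 8.19 at CT18, both without overlap. The other tested genes of this role, Kcnn1, Kcnn4, Kcnt1 and Kcnt2, lay between -0.16 and 0.06 and were not called.

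The BK beta subunits alter the calcium sensitivity and inactivation of the BK pore. Of the 4 tested, only Kcnmb1 was called, in the direction opposite to the pore (all genes 6.79% lower). Kcnmb1 read 9.13 and 9.10 at CT6 and 8.77 and 8.67 at CT18 in WT, and 9.16 and 9.16 at CT6 and 8.69 and 8.82 at CT18 in KO. All CT18 arrays were below all CT6 arrays, and it fell by 0.40 (SE 0.0441, limma adjusted p = 0.000295). Kcnmb1 is best known from smooth muscle, and the mean of 5 mural cell markers (Pdgfrb, Rgs5, Acta2, Tagln and Vtn, all above the filter) was also lower at CT18 by 0.23. That mean ran from 8.62 to 8.81 in the CT6 arrays and from 8.40 to 8.60 in the CT18 arrays. The single markers differed by -0.43 (Acta2) to -0.07 (Rgs5). Of the 5, 3 were called lower, where 6.79% of all genes tested were. The part of mural cells in the Kcnmb1 result was not tested. Kcnmb1 also overlaps Kcnip1 in the RefSeq annotation, and how the array signal treats the strand is not stated in those sources. Kcnmb4, the neuronal BK beta subunit, read 6.99 to 7.19 at CT6 and 7.04 to 7.29 at CT18. These values lay near the filter of 6.82 and overlapped, and its difference of 0.11 ± 0.0692 was not called (limma adjusted p = 0.311). Kcnmb2 and Kcnmb3 had differences of 0.05 and -0.02 and were not called.

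**Figure D2:**
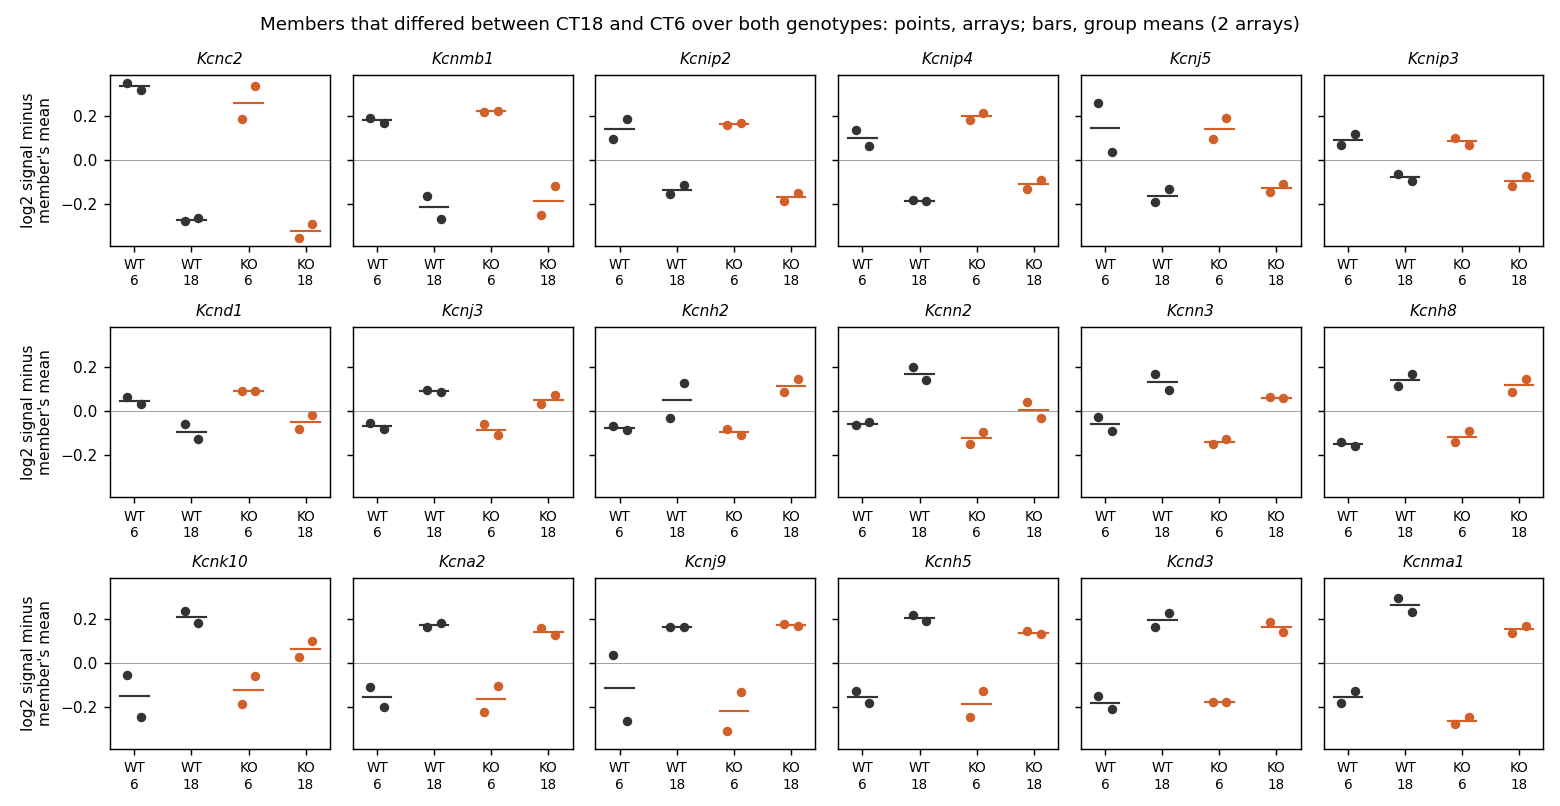
Signal of the called members in each array: the vertical axis is the log2 signal minus the gene's mean over the 8 arrays, and points are single arrays of the 4 groups (WT and KO at CT6 and CT18, 2 pools each). In each gene the 4 arrays of one time lie on the same side of the 4 arrays of the other.

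Of the inward rectifiers, which pass current best near rest, 7 of 15 were tested. The G protein-gated subunits among them (the GIRK channels through which inhibitory receptors act) went in both directions. Kcnj9 (GIRK3) read 7.83 and 7.53 at CT6 and 7.96 and 7.96 at CT18 in WT, and 7.49 and 7.67 at CT6 and 7.98 and 7.97 at CT18 in KO. The CT6 pools of each genotype were spread, yet all lay below the CT18 pools, and the difference was 0.34 ± 0.0658 (limma adjusted p = 0.00759). Kcnj3 (GIRK1) rose by 0.15 ± 0.0365 (limma adjusted p = 0.0222), a call kept in 9 of 15 alternatives and in 3 of 8 that left out 1 array. Kcnj5 (GIRK4) fell by 0.29 (SE 0.054, limma adjusted p = 0.00588), from 7.53, 7.30, 7.36 and 7.46 in the CT6 arrays to 7.07, 7.13, 7.12 and 7.16 at CT18. The fourth GIRK gene, Kcnj6, lay under the filter. Kcnj11, the pore of the ATP-sensitive channel, had a difference of 0.15 ± 0.0618 and was not called (limma adjusted p = 0.124), with values of 6.73 to 7.23. Kcnj10 (Kir4.1), the glial channel that takes up potassium around neurons, read 10.99 to 11.13 at CT6 and 11.00 to 11.18 at CT18. These values overlapped and its difference of 0.04 ± 0.0371 was not called (limma adjusted p = 0.495). Kcnj16, a partner of Kcnj10, had a difference of -0.07 and was not called.

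Kcnj13, an inward rectifier known from epithelia such as the choroid plexus, was singled out after its values were seen, because it varied most between pools of 1 group. It read 6.67 and 7.25 in WT CT6, 7.65 and 6.69 in WT CT18, 7.49 and 6.76 in KO CT6, and 6.71 and 6.68 in KO CT18. Its pooled within-group SD was 0.475, beside 0.0599 for the median tested member and 0.140 for the next highest, Kcnmb3. The 3 arrays with high Kcnj13 (WT CT6 B, WT CT18 A and KO CT6 A) also had the 3 highest means of 8 leptomeningeal markers, at 7.76, 7.97 and 7.93, against 7.23 to 7.44 in the other 5. Of these 8 markers 6 were above the filter, and Lum and Ogn were not. Col1a1, another of the 8, had its lowest value in WT CT18 A, at 7.48. The match was not particular to this list. The same 3 arrays had the 3 highest means of the oligodendrocyte list, at 9.91 to 10.01 against 9.58 to 9.88 in the other 5. They also had the 3 highest means of the astrocyte list, at 11.02 to 11.06 against 10.83 to 10.99. The choroid plexus list stayed within 6.38 to 6.47. The part of other tissue in the Kcnj13 signal was not tested. Its difference between the times, -0.11 ± 0.22, was not called (limma adjusted p = 0.792).

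**Figure D3:**
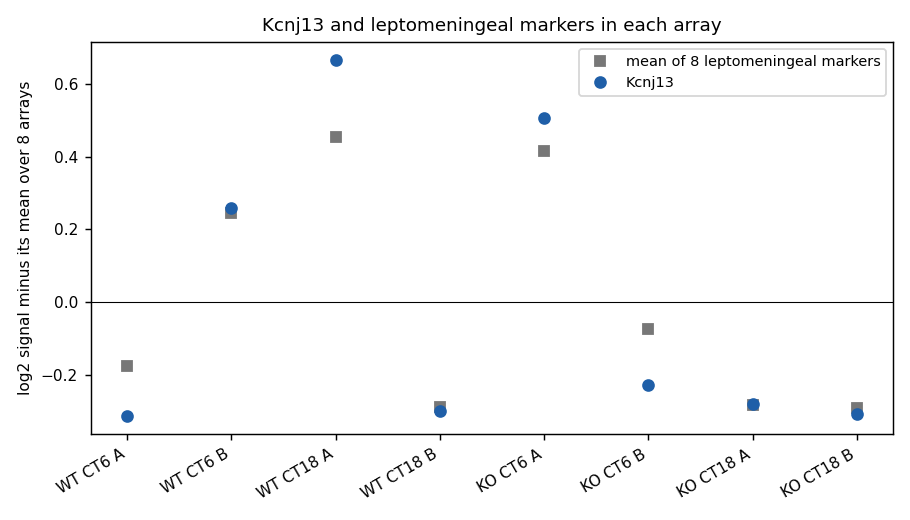
Kcnj13 (blue circles) and the mean of 8 leptomeningeal markers (grey squares) in each of the 8 arrays, as log2 signal minus each one's own mean over the arrays. Both are above their means in WT CT6 B, WT CT18 A and KO CT6 A and below them in the other 5 arrays.

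The tandem-pore leak channels (K2P) help to set the resting potential. Of the 9 tested (14 in all), 1 rose and none fell, where 10.0% of all genes tested rose and 6.79% fell. A count of 1 in 9 is near the share that rose. Kcnk10 (TREK-2) read 7.56 and 7.37 at CT6 and 7.85 and 7.80 at CT18 in WT, and 7.43 and 7.56 at CT6 and 7.64 and 7.72 at CT18 in KO. The times did not overlap, and the difference was 0.27 ± 0.0528 (limma adjusted p = 0.00702). Kcnk1 (TWIK-1) read 9.00 to 9.04 at CT6 and 9.04 to 9.16 at CT18. Its arrays were separate by time only by a very small margin, from 9.0419 in WT CT6 B to 9.0423 in WT CT18 A. The Kcnk1 difference of 0.09 ± 0.0428 was not called (limma adjusted p = 0.196). Kcnk2 (TREK-1) had a difference of -0.09 ± 0.0677 and was not called (limma adjusted p = 0.394). The other 6 lay between -0.08 and 0.08.

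The silent Kv subunits, which form no channel alone and modify Kv2 pores, and the Kv7 subunits of the M-current had no called member among 5 and 2 tested (all genes 16.8%). Kcng3 came closest, with a difference of 0.15 ± 0.0469 (limma adjusted p = 0.0513). Of the 3 opposite-strand RNAs that carry a Kcn symbol but encode no subunit, only Kcnd3os was tested. It overlaps Kcnd3 in the annotation, yet its difference was 0.00 ± 0.0547 (limma adjusted p = 0.970) where that of Kcnd3 was 0.36. Over all roles, the 4 arrays of one time lay wholly on one side of the 4 of the other in 22 members, 15 higher and 7 lower at CT18. This is 37.3% of tested members, beside 21.0% of all genes tested. The 22 are the 18 called members with Kcnc1, Kcng3, Kcnv1 and Kcnk1, the last by the very small margin given above. The median size of the difference, without its sign, was 0.0843 for members and 0.0644 for all genes, and the signed medians were 0.0398 and 0.0104.

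The 33 members under the filter had mean signals of 5.36 to 6.81. They included Kcnj6, Kcna4, Kcnq1, Kcna5 and Kcnj2. In a fit without the filter none was called in any of the 7 comparisons, and the lowest limma adjusted p for CT18 against CT6 over both genotypes was 0.0562, for Kcnj6 with a difference of 0.16. The members nearest the filter were Kcnv1 at 6.84, just inside it, and Kcnk13 at 6.81, just outside. For 1 probe set in each role, given in the order of the roles and each on the scale of its own probes, so that no ranking between genes follows, the mean signal was 10.3 for Kcna2, 8.56 for Kcng3, 8.12 for Kcnq3, 10.2 for Kcnh5, 10.1 for Kcnma1, 8.94 for Kcnmb1, 11.1 for Kcnj10, 9.06 for Kcnk1, 10.7 for Kcnip3 and 8.46 for Kcnd3os.

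Proteins that assemble with these channels but carry no Kcn symbol were read from a list of 16, of which 13 were tested. Over both genotypes 3 rose and 2 fell at CT18, where 10.0% of all genes tested rose and 6.79% fell. The list's median difference was -0.02 beside 0.01 for all genes. Abcc8 (SUR1), the sulfonylurea receptor that surrounds the Kcnj11 pore, read 7.26 and 7.37 at CT6 and 7.81 and 7.78 at CT18 in WT, and 7.30 and 7.32 at CT6 and 7.70 and 7.80 at CT18 in KO. It rose without overlap by 0.46 ± 0.0427 (limma adjusted p = 9.61e-05). Amigo1, an auxiliary protein of Kv2 channels, rose by 0.28 ± 0.0456 (limma adjusted p = 0.00265), and Lrrc55, a BK gamma subunit, by 0.19 ± 0.0442 (limma adjusted p = 0.0183). Dpp10, a partner of Kv4 pores, fell by 0.16 (limma adjusted p = 0.0209), and the scaffold gene Dlg2 fell by 0.13 (limma adjusted p = 0.0315). Of 7 tested potassium pump and cotransporter genes, Atp1b2 alone was called, with a rise of 0.14 (limma adjusted p = 0.0420). Among all genes tested 16.8% were called in this comparison.

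Each genotype was then taken alone. In WT, 12 of 59 members were called (20.3%, beside 6.94% of all genes), 7 higher (all genes 4.40%) and 5 lower (all genes 2.54%). In KO, 10 were called (16.9%, beside 7.16% of all genes), 6 higher (all genes 3.63%) and 4 lower (all genes 3.53%). The calls made in both were 9 (Kcnc2, Kcnma1, Kcnd3, Kcnmb1, Kcnh5, Kcnip4, Kcnip2, Kcna2 and Kcnh8), which is 75% of the WT calls and 90% of the KO calls. The WT comparison alone called Kcnj5, Kcnk10 and Kcnn2, and the KO comparison alone called Kcnj9. Several of these calls were easily lost: the WT call of Kcnn2 was kept in 5 of 16 alternatives (0 of 8 that left out 1 array), that of Kcnj5 in 7 of 15, and the KO calls of Kcnh8 and Kcnj9 in 6 of 16 and 9 of 15. All 4 were also lost with every array kept when no level filter was used, and the WT calls of Kcnn2 and Kcnj5 with the pool letter as a replicate block. The counts depended on single arrays as well. The WT count was 6 without WT CT6 B, 4 without WT CT18 A and 5 without WT CT18 B, and the KO count was 6 without KO CT6 A, 5 without KO CT18 A and 6 without KO CT18 B. Kcnc2, Kcnd3 and Kcnmb1 stayed called in both genotypes in every alternative run.

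The day-night differences of the genotypes, which share no array, had the same sign in 41 of 59 members (69.5%, all genes 68.2%). All 13 members called in either genotype had the same sign in both, and their differences were within 0.17 of each other. The same share among all genes called in either genotype was not counted. Across the 59 members Pearson's r between the genotypes' differences was 0.75, and over all genes tested it was 0.76; the points are genes on the same arrays and not independent replicates. For Kcnma1 the difference was 0.42 ± 0.0536 in WT and 0.42 ± 0.0536 in KO, and the interaction (the KO difference minus the WT difference) was 0.00 with a 95% interval of -0.17 to 0.17. For Kcnc2 the interaction was 0.02 with an interval of -0.17 to 0.22. For Kcnk10, called in WT at 0.36 ± 0.0746 and not in KO at 0.19 ± 0.0746, the interaction was -0.17 with an interval of -0.41 to 0.06 (limma adjusted p = 0.945). The WT and KO differences of Kcnk10 were therefore not shown to be unequal.

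**Figure D4:**
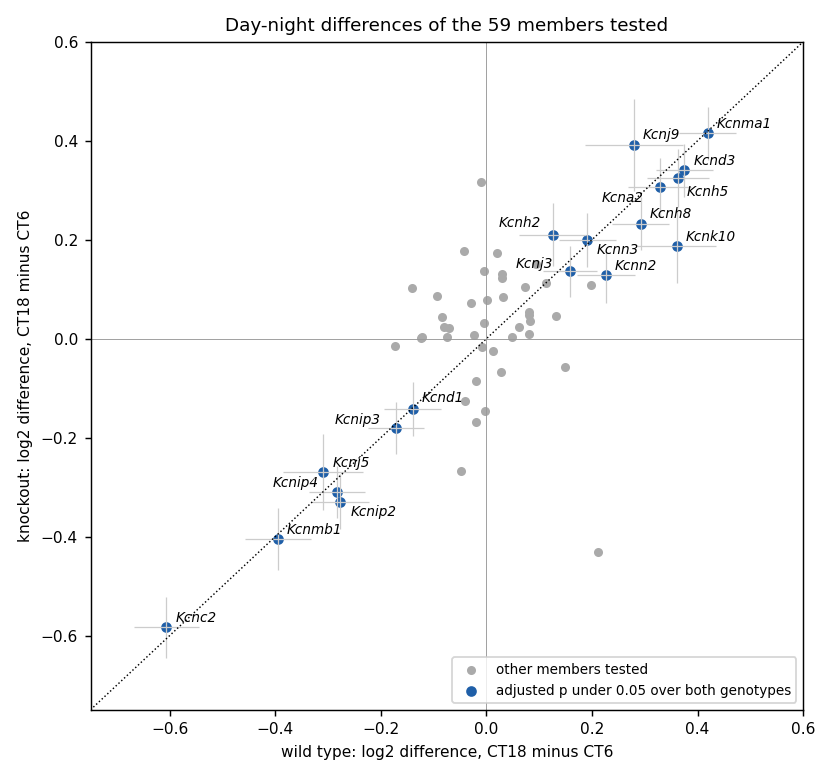
Day-night differences of the 59 tested members in WT (horizontal axis) and KO (vertical axis), each the log2 signal at CT18 minus CT6 with 2 arrays per group; blue points with standard error bars are the 18 called over both genotypes, and the dotted line marks equal differences. The called members lie along that line, from Kcnc2 at the lower left to Kcnma1 at the upper right. They were called on the difference over both genotypes, so their place near the line follows in part from how they were chosen.

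No member was called for the interaction, and no gene of the 12452 was either (0%). At an unadjusted p under 0.05 there were 3 members and 606 genes. The 3 were Kcnj11, with an interaction of 0.33 ± 0.124 (limma adjusted p = 0.945), Kcnk4 with 0.22 and Kcnb2 with -0.21. Kcnj11 read 6.90 and 6.92 in WT CT6, 6.82 and 6.98 in WT CT18, 6.73 and 6.86 in KO CT6, and 7.00 and 7.23 in KO CT18. The KO CT18 pools were the highest, but the gap to WT CT18 B was smaller than the distance between the KO CT18 pools.

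Between the genotypes, too, no member was called: 0 at CT6, 0 at CT18 and 0 over both times, beside 0.00803%, 0.00803% and 0.0241% of all genes (1, 1 and 3 genes). At an unadjusted limma p under 0.05 there were 2 members at CT6 (528 genes), 9 at CT18 (1559 genes) and 9 over both times (1496 genes). The lowest limma adjusted p of a member was 0.975 at CT6, 0.318 at CT18 and 0.342 over both. Kcnd2, the Kv4 pore gene, had the smallest unadjusted p over both times. It read 10.30 and 10.23 in WT CT6, 10.31 and 10.27 in WT CT18, 10.06 and 10.07 in KO CT6, and 10.17 and 10.20 in KO CT18. All KO arrays were below all WT arrays, with a difference of -0.15 ± 0.0377 (limma adjusted p = 0.342) and a 95% interval of -0.23 to -0.07 before any adjustment for the number of genes. It was also first at CT6, at -0.20 ± 0.0533, followed by Kcnq5 at -0.15 and Kcnma1 at -0.11.

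At CT18 the smallest unadjusted p was that of Kcnip1, at 0.20 ± 0.0536 (limma adjusted p = 0.318), followed by Kcnt2, a sodium-activated pore, at -0.27 and Kcnd3os at 0.25. Over both times Kcnd2 was followed by Kcnj10 at -0.12 ± 0.0371 and Kcnip1 at 0.12 ± 0.0379 (limma adjusted p = 0.353 for each). Kcnj10 read 11.13, 11.07, 11.18 and 11.14 in the WT arrays and 11.01, 10.99, 11.00 and 11.04 in the KO arrays, which did not overlap. The means of glial marker lists differed between KO and WT in both directions. The differences were -0.06 for astrocytes (8 genes), -0.12 for oligodendrocytes (7 genes) and -0.11 for oligodendrocyte precursors (4 genes). They were 0.07 for microglia (7 genes) and 0.07 for ependymal cells and tanycytes (6 genes). The WT and KO arrays overlapped for each of these means. They did not overlap for the list of neighbouring hypothalamic neurons (7 genes found, 4 above the filter), which was higher in KO by 0.11. Its mean was 7.98 to 8.05 in the KO arrays and 7.85 to 7.97 in the WT arrays. None of its 4 tested genes was called between the genotypes over both times. The part of these cell types in the Kcnj10 value was not tested. Separate arrays by genotype were found in 4 members (Kcnd2 and Kcnj10 lower, Kcnk3 and Kcnk6 higher in KO), or 6.78% of those tested, beside 4.22% of all genes. With 2 pools per group the median standard error of a genotype difference at 1 time was 0.0636 over all genes. The differences at CT6 and CT18 came from separate arrays and had the same sign in 36 of 59 members (r = 0.04, all genes 0.24, across genes).

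**Figure D5:**
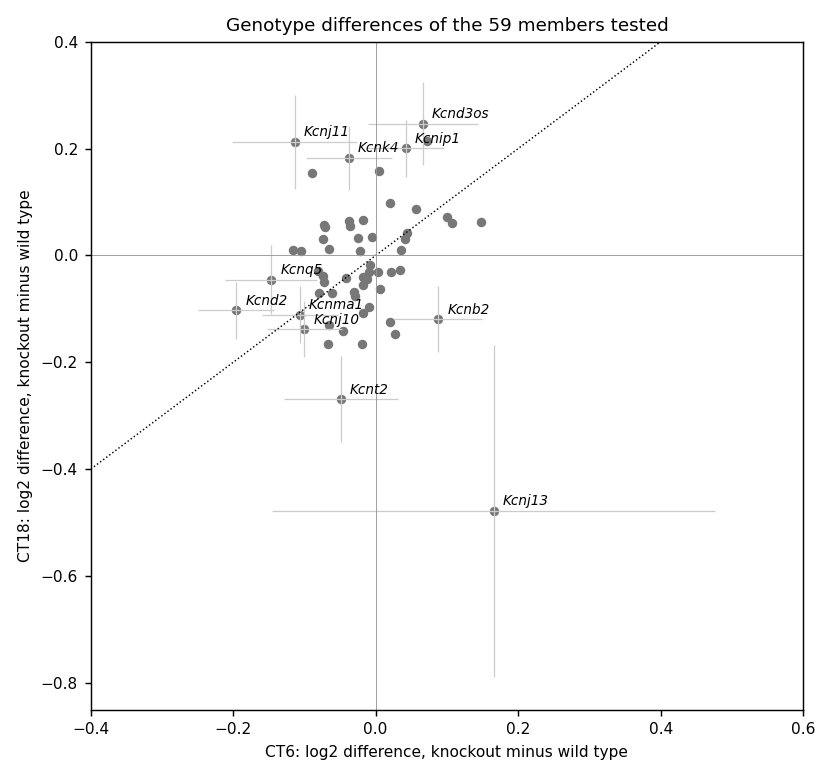
Genotype differences of the 59 tested members at CT6 (horizontal axis) and CT18 (vertical axis), each the log2 signal in KO minus WT with 2 arrays per group; named points carry standard error bars and the dotted line marks equal differences. No point was called; Kcnd2 is low at both times, and Kcnj13, at 0.17 and -0.48, has the widest bars.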

How the data were processed

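RNA from the SCN was hybridised to 8 whole-transcript arrays, each a pool of 10 animals, in 4 groups of 2. The authors deposited log2 signals of 28853 probe sets, per the file headers and their values; the background correction and summarisation are not given in the sources used here. Array medians of the deposited log2 values differed by 0.0504 and upper quartiles by 0.0890. Of the probe sets, 21789 have 1 gene symbol in the platform annotation, 1621 have several and 5443 are unnamed here. All 92 members matched RefSeq by Entrez ID.

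The values were quantile normalized. For each gene the probe set of highest mean was kept (3 members have more than 1), and genes under the 40th percentile of all probe means were left out. limma 3.58.1 in R 4.3.3 fitted 1 mean per group to all 8 arrays (4 residual degrees of freedom, prior 5.58), with 7 comparisons and Benjamini-Hochberg adjustment over 12452 genes at 0.05. The fit was tested on simulated data. The number of arrays limits the precision. Members called in any comparison were named, with 10 subunits known from SCN neurons, the 3 smallest p-values where no member was called, and the strongest signal of each role. The members and lists were chosen with earlier results of these data known. Alternatives changed the normalization, filter, probe set rule, variance model, arrays and a block on pool letter. No link between pools of the same letter is stated, and the letters were not treated as pairs. Correlations of the A minus B differences between groups ran from -0.222 to 0.257, which cannot settle whether pools were handled together.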

Additional observations from a re-analysis of the deposited data

How the results depend on the processing

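No called value turned its sign in any alternative. For members called between CT18 and CT6, other settings with all arrays gave 10 to 14 in WT (12 as reported), 8 to 13 in KO (10) and 15 to 19 over both genotypes (18), and the genotype and interaction counts stayed at 0. Leaving out 1 array gave 4 to 11 in WT, 5 to 10 in KO and 15 to 18 over both. The WT count was 6 without WT CT6 B, 4 without WT CT18 A and 5 without WT CT18 B, and the KO count was 6 without KO CT6 A, 5 without KO CT18 A and 6 without KO CT18 B; such a fit has fewer samples, and a lone pool is assumed to vary like the others. With the pool letter as a replicate block the counts were 10 in WT, 11 in KO and 18 over both, and with the letters swapped in WT CT18, an alternative chosen after seeing the data, 12, 12 and 19. Centring each array on its median in place of quantile normalization called 590 genes in KO where 891 were called before. With the mean of both probe sets, Kcnma1 was not called in WT (0.19, limma adjusted p = 0.0790) or KO (0.21, limma adjusted p = 0.0519). That mean takes in the second Kcnma1 probe set, of mean signal 5.15 and a difference of -0.02 over both genotypes. Why the probe sets differ was not tested. Differences under about 0.1 on the log2 scale are near the standard error of 0.0636 for 2 pools against 2.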
